A study of Mus musculus with 36 samples.

Results

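The 10 mouse genes described here write, maintain or remove DNA methylation: Dnmt1, Uhrf1, Dnmt3a, Dnmt3b and Dnmt3l on the writing side, Tet1, Tet2 and Tet3 as erasers, and Tdg and Mbd4 as repair enzymes. Their methylation was read from every CpG cluster, a run of listed positions at most 100 bp apart, that overlapped the gene or 2 kb either side of it in GENCODE M21 on GRCm38. That gave 15 clusters of 18009 in the table, over 9 of the 10 genes. Dnmt3l had no cluster.

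Methylation was measured by reduced representation bisulfite sequencing (RRBS), which cuts DNA at CCGG and reads CG-rich fragments, in 36 samples of B3, a mouse pre-B cell line. The Ikaros series carried a retroviral vector (MSCV) for HA-tagged Ikaros fused to ERt2, a receptor domain that moves into the nucleus when it binds 4-hydroxytamoxifen (4-OHT), with IRES-GFP. The Control series carried ERt2-IRES-GFP alone, and cells of both series were sorted for GFP. Each series was collected 0, 2, 6, 12, 18 and 24 h after 0.5 uM 4-OHT, with 3 replicates at each time. The study's methods give no 4-OHT at 0 h, whereas the sample labels name the dose for every sample. Those methods also state that the 0 h cells were obtained separately. A change from 0 h thus cannot be told apart from a difference of collection. By the labels, replicates 1 and 3 are batches 1 and 4, and replicate 2 is batch 2 at 0 h and batch 3 later. All cells come from 1 line, so no result here speaks for other B cells. The sequencing method does not tell methylcytosine from hydroxymethylcytosine.

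DNMT1 copies methylation onto newly made DNA strands, guided by UHRF1, which binds CG sites methylated on 1 strand. DNMT3A and DNMT3B add methylation at new sites, and DNMT3L is an inactive relative that helps them, chiefly in germ cells. TET enzymes oxidise methylcytosine, and TDG cuts out the more oxidised forms, while MBD4 removes thymine left when methylcytosine is deaminated. DNMT3A and TET2 are among the genes most often mutated in blood cancers.

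The values are levels smoothed by the authors along each cluster, so neighbouring positions share reads. No coverage is given, so how many reads stand behind a level is unknown and the spread between samples is the only error. The share of deposited levels at exactly 0 or 100%, which tends to grow as fewer reads cover a site, was 36.2% ± 7.6 (SD, n = 18) in Ikaros cells and 27.9% ± 4.9 (SD, n = 18) in Control cells, and its highest value, 59.1%, was in Ikaros 24 h replicate 2. The share of positions without a value pointed the other way on the mean, with 0.619% ± 0.731 (SD, n = 18) for Ikaros and 1.62% ± 2.90 (SD, n = 18) for Control, and stood at 11.6% in Control 0 h replicate 1, the highest, against medians of 0.342 and 0.323%. Control 24 h replicate 2 stood apart from its label: at the 13 clusters of the table that differed most between the series (at least 20 percentage points), it lay 69.9% of the distance that separates the mean of the Ikaros samples from that of the Controls, against 16.0% or less for the other Control samples and 93.8% or more for the Ikaros samples. Values without one or the other of these samples are given where leaving it out changed a call or a value that a statement rests on. Methylation could be read at 4 of 11 B-lineage marker genes only, and it does not establish the identity of the cells. The promoter clusters of Pax5, Ebf1 and Vpreb1 lay under 10%, as did 58.4% of all promoter clusters of the table. The promoter cluster of Myod1, a muscle gene, lay over 90%, as did 32.4%. The gene-body clusters of Cd79a and Pax5 lay under 10% and that of Ebf1 over 90%. That of Cd4, listed for other lineages, lay at 81.9% in Ikaros and 82.6% in Control cells.

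The sequences that carry the main patterns are printed 5′ to 3′ in the sense of the gene, with every CG in capitals. They come from RefSeq on GRCm38.p6, and all 10 genes had an entry in its promoter table. Both starts of Tet3 are shown because they had opposite levels. The first sequence is the 250 bases before the upstream start (chr6:83456393-83456642, minus strand), with 38 CG and a mean level of 0.574% over 40 listed positions. The next is the 250 bases before the downstream start (chr6:83441679-83441928, minus strand), with 17 CG and a mean level of 98.2% over 28 listed positions.

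Tet3 upstream start: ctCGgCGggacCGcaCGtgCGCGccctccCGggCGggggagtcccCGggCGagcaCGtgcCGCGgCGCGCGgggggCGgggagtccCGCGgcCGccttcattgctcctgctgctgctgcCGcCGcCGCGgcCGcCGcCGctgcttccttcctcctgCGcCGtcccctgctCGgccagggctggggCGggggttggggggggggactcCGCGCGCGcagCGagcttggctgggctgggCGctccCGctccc

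Tet3 downstream start: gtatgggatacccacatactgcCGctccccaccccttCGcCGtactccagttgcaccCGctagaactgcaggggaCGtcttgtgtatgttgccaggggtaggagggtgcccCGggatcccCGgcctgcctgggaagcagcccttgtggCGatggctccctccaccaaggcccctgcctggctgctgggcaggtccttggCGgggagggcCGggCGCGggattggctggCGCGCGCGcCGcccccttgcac

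Tet2 is shown because its level was near the middle and spread widely. The 250 bases before its start (chr3:133544391-133544640, minus strand) held 51 CG, against a median of 6 over the 32851 promoters of the table. Much of this stretch is a tandem repeat. Shifted by 42 bases, 77.9% of the 208 bases that could be compared met an equal base, a share reached at any shift from 20 to 100 bases by 0.067% of all promoters (median best share 34.4%). Among the other 9 genes the best share was 49.0%, for Dnmt3a.

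Tet2 before its start: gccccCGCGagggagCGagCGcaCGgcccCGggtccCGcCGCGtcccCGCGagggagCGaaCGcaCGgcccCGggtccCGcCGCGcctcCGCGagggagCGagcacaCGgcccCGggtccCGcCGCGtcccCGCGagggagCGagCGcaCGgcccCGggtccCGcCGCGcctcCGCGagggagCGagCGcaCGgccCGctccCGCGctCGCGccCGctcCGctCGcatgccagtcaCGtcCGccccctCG

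Dnmt3a is shown at the place in its first intron where methylation switched from almost none to almost full (chr12:3807901-3808200, plus strand). The 300 bases held 29 CG.

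Dnmt3a edge: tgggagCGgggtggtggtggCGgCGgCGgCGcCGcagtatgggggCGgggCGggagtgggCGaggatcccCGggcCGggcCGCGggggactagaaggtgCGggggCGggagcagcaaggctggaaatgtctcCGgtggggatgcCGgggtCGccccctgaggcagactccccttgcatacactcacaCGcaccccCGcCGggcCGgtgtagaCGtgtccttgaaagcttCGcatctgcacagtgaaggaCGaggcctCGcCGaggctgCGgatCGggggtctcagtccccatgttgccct

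Tet1 is shown at a dip of methylation in an intron that starts just behind a first exon (chr10:62886972-62887171, minus strand). The 200 bases held 10 CG.

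Tet1 dip: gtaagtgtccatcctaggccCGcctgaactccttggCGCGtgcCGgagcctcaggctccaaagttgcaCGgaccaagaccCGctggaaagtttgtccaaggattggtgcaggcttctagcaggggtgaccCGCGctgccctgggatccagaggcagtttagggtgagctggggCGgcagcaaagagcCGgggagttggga

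The writer and eraser genes fell into groups by level. Of the 15 clusters, 9 had a mean under 10% over the samples, 4 lay from 10 to 90% and 2 lay over 90%. The 9 low clusters lay over a start or within 66 bp of one, at 7 genes (Dnmt1, Uhrf1, Dnmt3a, Dnmt3b, Tet3, Tdg and Mbd4), with means from 0.218 to 2.70% and no sample above 4.93%. For 8 of them this covers positions measured in all 36 samples, and for Mbd4, which has no such position, all listed positions. Over all listed positions Dnmt3b cluster 2 had a mean of 6.82% and reached 9.97% in 1 sample, while no sample exceeded 3.84% at the other low clusters. All clusters at or near starts of Tet1 and Tet2, and 1 start of Tet3, carried methylation. Of the 15 clusters, 14 lay within 1000 bp of an annotated start and are called promoter clusters, and 1 lay in the gene body. The gene-body cluster was 1 of the 2 over 90%, so the promoter clusters split into 9, 4 and 1. Over all 13134 promoter clusters of protein-coding genes in the table, 58.4% had a mean under 10%, 9.17% lay from 10 to 90% and 32.4% lay over 90%.

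**Figure D1:**
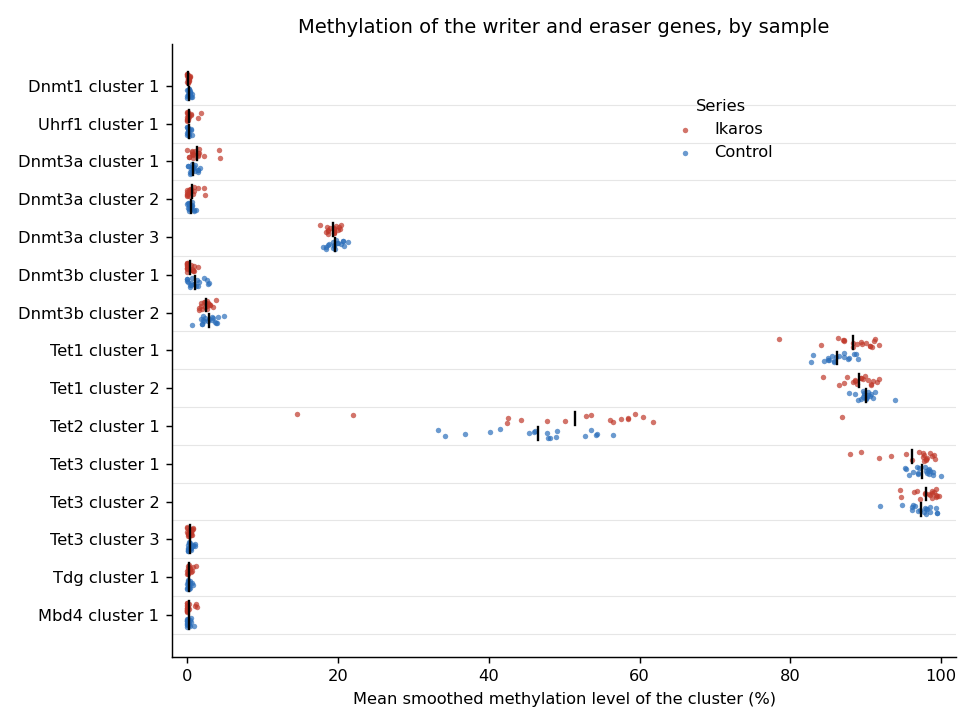
Mean smoothed methylation level (%, x axis) of each of the 15 CpG clusters, with 1 point per sample, red for the Ikaros series and blue for the Control series, and a black bar at the mean of each series. 9 clusters sit near 0, the Tet1 and Tet3 clusters 1 and 2 sit over 78%, and the Tet2 cluster spreads from 14.6 to 86.8%.

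Of the maintenance genes, Dnmt1 had 1 cluster of 50 positions over the start of the transcripts Dnmt1-203 and Dnmt1-207 (chr9:20952543-20952822, untranslated and coding exon). Its level was 0.155% ± 0.123 (SD, n = 18) in Ikaros cells and 0.286% ± 0.208 (SD, n = 18) in Control cells, from 0 to 0.700% over all samples. The upstream start of Dnmt1-202, at chr9:20959888, had no cluster within 1000 bp in the table, which lists only positions inside the CpG clusters the authors defined, so its methylation is not described here. Uhrf1 had 1 cluster of 104 positions (chr17:56303731-56304423, over the start of Uhrf1-202). It lay at 0.333% ± 0.525 (SD, n = 18) in Ikaros cells and 0.210% ± 0.177 (SD, n = 18) in Control cells, with a highest sample of 1.92%. Both genes were thus read as unmethylated at the starts under these clusters in every sample. The upstream Uhrf1 starts at chr17:56303321-56303400 lie outside the Uhrf1 cluster. The start of Dnmt1-201, at chr9:20952979, lies outside the Dnmt1 cluster.

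Of the de novo enzymes, Dnmt3a had 3 clusters around its 5′ starts. The first (chr12:3806483-3807057, start of Dnmt3a-202) had levels of 1.35% ± 1.23 (SD, n = 18) in the Ikaros series, from 0 to 4.42% with a median of 0.929%, and 0.824% ± 0.465 (SD, n = 18) in Control cells, from 0.0912 to 1.71% with a median of 0.728%. The next (chr12:3807158-3807383, start of Dnmt3a-218) had 0.630% ± 0.726 (SD, n = 18) and 0.477% ± 0.317 (SD, n = 18). These clusters were low in both series, and the series overlapped. The third cluster (chr12:3807517-3808230) lay wholly in an intron, and its mean of 19.5% hid a sharp step.

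From 357 to 441 bp downstream of the start at chr12:3807160 its level was 0.0160% ± 0.0665 (SD, n = 35), and from 557 to 847 bp it was 1.83% ± 0.864 (SD, n = 36). From 892 to 1015 bp it was 87.7% ± 2.61 (SD, n = 36), and from 1057 to 1070 bp 90.3% ± 2.85 (SD, n = 36). At single positions of Dnmt3a cluster 3 the mean level was 7.77% at 847 bp, 50.7% at 892 bp and 86.6% at 929 bp. The methylation of Dnmt3a thus passed from nearly none to nearly full between the CG sites of the sequence printed above. The level crossed 50%, read from the line between neighbouring positions, once in each of the 36 samples, at 890 bp ± 8.6 (SD, n = 18) in Ikaros cells and 893 bp ± 10.4 (SD, n = 18) in Control cells. The crossings ran from 872 to 900 bp in Ikaros cells and from 872 to 910 bp in the Control series, so the series overlapped. The authors' smoothing, with a bandwidth of 80 bp, limits how finely such a step can be placed. The internal start group of Dnmt3a at chr12:3891728-3891744 had no cluster within 1000 bp, although its window held 9 CCGG.

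Dnmt3b had 2 clusters at its 5′ end, where the antisense gene Dnmt3bos overlaps it. Cluster 1 (chr2:153649433-153649544, start of Dnmt3b-202) had 0.361% ± 0.459 (SD, n = 18) in the Ikaros series, from 0 to 1.44% with a median of 0, and 1.11% ± 0.980 (SD, n = 18) in Control cells, from 0 to 2.88% with a median of 0.857%. The Control samples reached higher, but samples at 0 occurred in both series. Cluster 2 (chr2:153649658-153650183, from 41 bp downstream of the start of Dnmt3b-207) had 2.53% ± 0.619 (SD, n = 18) and 2.88% ± 1.05 (SD, n = 18). Its far end was methylated: 0.973% ± 0.917 (SD, n = 36) at 41 to 144 bp rose to 47.3% ± 7.81 (SD, n = 35) at 386 to 402 bp and 35.2% ± 14.2 (SD, n = 35) at 527 to 566 bp. Many of those positions lacked a value in some sample, and with them the mean of the cluster was 6.82% in place of 2.70%. Dnmt3l, the inactive helper, had 3 groups of starts with 0 to 4 CCGG in their windows and no cluster.

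**Figure D2:**
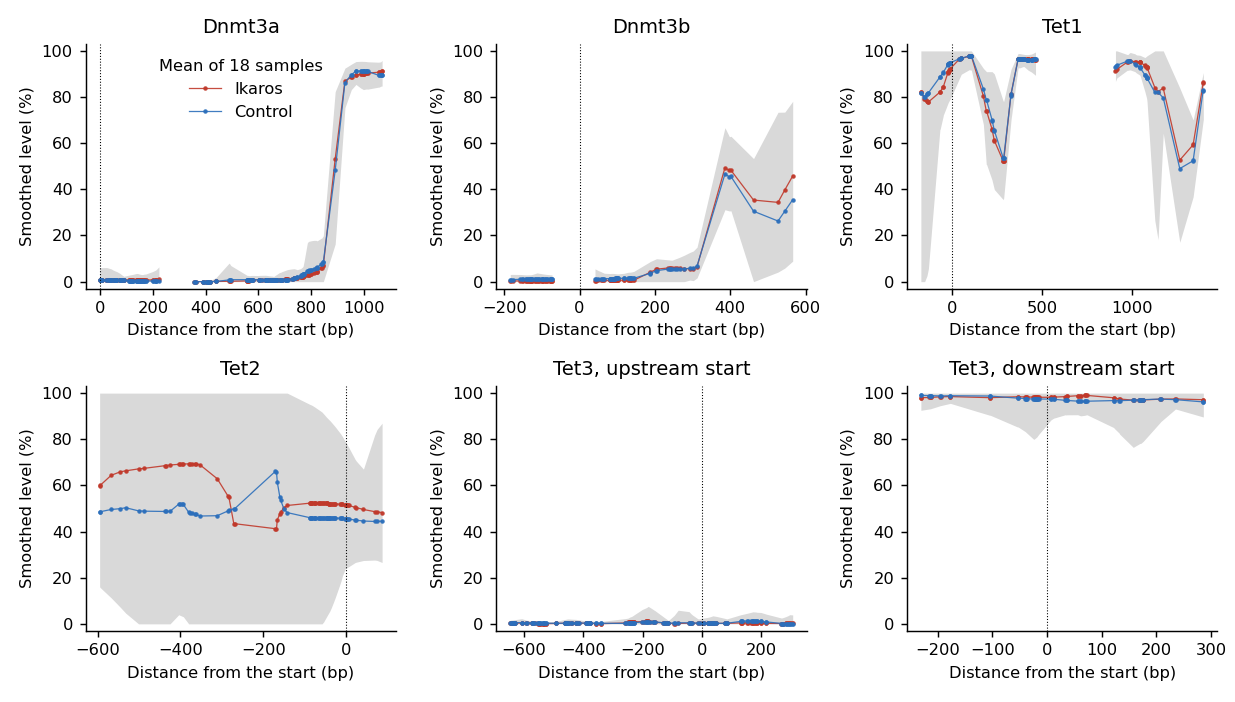
Smoothed level (%, y axis) of each listed position against its distance from a start (bp, x axis, dotted line at the start), for Dnmt3a, Dnmt3b, Tet1, Tet2 and both starts of Tet3, with the mean of the 18 samples of each series as a line and the range over all samples in grey. Dnmt3a cluster 3 steps up between 847 and 929 bp, Tet1 dips at 283 to 286 bp, Tet2 fills the whole range, and the Tet3 starts lie at opposite ends of the scale.

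Of the erasers, Tet1 was highly methylated in both of its clusters. Cluster 2 (chr10:62886861-62887499) lay over the first exon and start of Tet1-207. In the Ikaros series it had 89.1% ± 1.9 (SD, n = 18), from 84.3 to 91.7% with a median of 89.3%, and in the Control series 90.1% ± 1.3 (SD, n = 18), from 87.7 to 93.8% with a median of 90.02%. The series overlapped over most of their range. Within this cluster the level was 97.8% ± 1.88 (SD, n = 36) at 93 to 106 bp downstream of the start, fell to 53.0% ± 7.78 at 283 to 286 bp, and was 95.3% ± 1.27 at 326 to 463 bp (both SD, n = 36). The dip lies in the intron sequence printed above, and was 52.3% ± 8.27 in Ikaros cells and 53.6% ± 7.45 in the Control series (both SD, n = 18).

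Tet1 cluster 1 (chr10:62885927-62886416), 908 bp from that start in the same intron, had 88.3% ± 3.2 (SD, n = 18) in the Ikaros series, from 78.4 to 91.7% with a median of 89.1%. In the Control series it had 86.1% ± 1.8 (SD, n = 18), from 82.7 to 89.0% with a median of 85.9%. It too had lower positions inside, with 50.8% ± 16.7 at 1266 bp and 56.0% ± 8.81 at 1340 to 1341 bp (both SD, n = 36). The start of Tet1-207 and Tet1-210 was the only 1 of 7 Tet1 start groups with a cluster. The other 6 groups held 0 to 5 CCGG within 1000 bp, against 9 for this one.

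Tet2 had 1 cluster of 80 positions over a 5′ start (chr3:133544303-133544985, start of Tet2-201), at a middle level in most samples. Its level, SD and tests rest on the 53 positions with a value in all samples. All positions from -595 to -269 bp from the start lack a value in some sample and are left out of them. In the Ikaros series it had 51.4% ± 15.6 (SD, n = 18), from 14.6 to 86.8% with a median of 54.9%, and in the Control series 46.5% ± 6.9 (SD, n = 18), from 33.3 to 56.5% with a median of 47.8%. The Ikaros samples spread past the Control samples at both ends. Over all samples the SD was 12.2 percentage points. Of the 450 clusters in the table with a mean of 40 to 60%, 84% had a smaller SD, and their median SD was 8.62 (5th to 95th percentile 3.96 to 16.3). The lowest Tet2 sample was Ikaros 24 h replicate 2, the one with 59.1% of levels at exactly 0 or 100%. Without it, an alternative added after the data were seen, the SD over all samples was 10.8, above 77.2% of the 452 clusters then in that range, and the Ikaros samples had 53.6% ± 13.0 (SD, n = 17).

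**Figure D3:**
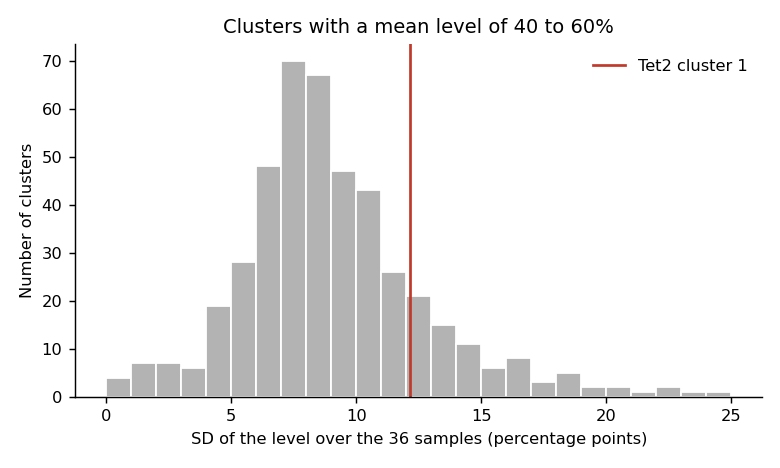
Histogram of the SD of the level over the 36 samples (percentage points, x axis) for the 450 clusters with a mean level of 40 to 60%, with the number of clusters on the y axis and a red line at the Tet2 cluster. The Tet2 cluster, at 12.2, lies to the right of 84% of these clusters.

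The spread at Tet2 differed along the cluster. The repeat printed above, at 86 to 94% equal bases one unit of 42 further on in each window of 50 bases from 51 to 225 bp before the start, held 25 listed positions, whose SDs over the samples ran from 14.0 to 41.2 percentage points with a median of 14.5. The 25 positions further upstream had a median SD of 24.3 and the 30 positions nearest the start one of 12.1. At -171 to -142 bp from the start, single samples lay anywhere from 0 to 100%. In the stretch from -437 to -353 bp, the Ikaros series had 69.1% ± 19.6 (SD, n = 18) and the Control series 47.4% ± 25.6 (SD, n = 17), and from -171 to -142 bp the order was the other way, with 47.5% ± 31.1 (SD, n = 18) and 56.3% ± 23.2 (SD, n = 18). These stretches were chosen after their values were seen and were not tested. Whether the repeat, the number of reads or the share of methylated alleles has a part in this spread was not tested.

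Tet3 had 3 clusters with opposite levels. Cluster 3 (chr6:83456086-83457038, 149 positions over the upstream start of Tet3-203) had 0.355% ± 0.288 (SD, n = 18) in Ikaros cells and 0.434% ± 0.297 (SD, n = 18) in Control cells, and no sample exceeded 1.03%. Cluster 2 (chr6:83441389-83441906, over the downstream starts of Tet3-202 and Tet3-201, where B230319C09Rik also lies) had 98.0% ± 1.5 (SD, n = 18), from 94.5 to 99.7%, and 97.2% ± 1.8 (SD, n = 18), from 91.8 to 99.4%. The 2 starts of the same gene thus lay near opposite ends of the scale in every sample. Cluster 1 (chr6:83404479-83404673), the only gene-body cluster, lay in a coding exon and had 96.2% ± 3.4 (SD, n = 18) and 97.5% ± 1.3 (SD, n = 18). The furthest upstream start, of Tet3-204 at chr6:83459084, had no cluster.

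Of the repair genes, Tdg had 1 cluster of 93 positions over the start of Tdg-201 (chr10:82629717-82630185), at 0.333% ± 0.312 (SD, n = 18) in Ikaros cells and 0.269% ± 0.218 (SD, n = 18) in Control cells, with a highest sample of 1.26%. Mbd4 had 1 cluster of 32 positions, 66 bp before the start of Mbd4-201 (chr6:115853437-115853744), at a stretch where Ift122 starts in the other direction. It had no value in Control 0 h replicate 3. In the other 35 samples it lay between 0 and 1.31%, with 0.227% ± 0.442 (SD, n = 18) in Ikaros cells and 0.209% ± 0.270 (SD, n = 17) in Control cells. Both glycosylase genes were thus read as unmethylated at or near a start, and Mbd4, with no position complete in all samples, was left out of the tests.

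In all, GENCODE M21 lists 50 groups of starts for the 10 genes (starts at most 500 bp apart), and 14 had a cluster within 1000 bp. The windows of these 14 held 6 to 42 CCGG (median 12.5) and 3.79 to 12.7 CG per 100 bases. The windows of the 36 groups without a cluster held 0 to 9 CCGG (median 3) and 0.10 to 3.67 CG per 100 bases. Sites there may have been read but lie outside the clusters the authors defined, and their methylation is not described here. Among the clusters themselves, the methylated Tet1 clusters had the fewest CG of the 15, 4.68 and 6.88 per 100 bases, against a median of 9.43 over the whole table, whereas Tet2 had 13.9, more than 90.2% of all clusters, with a middle level. Tet3 cluster 2 had 8.09 and Tet3 cluster 3 had 12.4.

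The comparison of the series asks whether the gene regions differ between cells with inducible Ikaros and cells with the empty vector, over all times. The study's methods name no repeat of the transduction, and cultures were grown from frozen sorted cells. A series difference thus cannot be told apart from a difference between the cell pools. Nothing among the 14 tested clusters passed the threshold. The limma fit on M-values, the log2 ratio of methylated to unmethylated, with time as a factor and Benjamini-Hochberg adjustment over all 16734 clusters, called 0 of 14 at an adjusted p under 0.05, with 2 of 14 at an unadjusted p under 0.05. Over the whole table, 4.84% of clusters passed the adjusted threshold and 14.8% the unadjusted one. The adjusted p of the 14 ran from 0.0988 to 0.861. Of the 14, 8 had a higher and 6 a lower mean M-value in the Ikaros series, with a median difference of 0.02, beside 63.6% higher and a median of 0.03 over all clusters.

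The lowest adjusted p was that of Tet1 cluster 1, higher in the Ikaros series by 0.40 in M-value (SE 0.14, adjusted p = 0.0988, limma) or 2.21 percentage points (95% interval 0.435 to 3.98). Ikaros was higher in 14 of 18 pairs of the same time and replicate number, at 5 of 6 times, and by 2.95, 0.831 and 2.84 percentage points within replicates 1, 2 and 3. At 24 h the direction was the opposite, lower by 2.78 percentage points, with Ikaros 24 h replicate 2 at 78.4%, the lowest sample. The other Ikaros samples of 24 h, at 91.2 and 86.2%, had a mean above the Control mean of 88.1%. The direction at 24 h thus rested on Ikaros 24 h replicate 2. Without that sample the limma adjusted p was 0.00979, and without Control 24 h replicate 2 it was 0.0491, so for this cluster single libraries decided on which side of 0.05 the test fell. Without replicate 1 it was 0.609, and with 2 proxies of coverage as covariates (how many positions lack a value in a sample, and how many lie at exactly 0 or 100%) 0.297.

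Dnmt3b cluster 1 was lower in the Ikaros series by 0.745 percentage points (95% interval 0.211 to 1.28 lower), and its limma test on M-values gave a difference of -0.37 with an adjusted p of 0.139. Under the alternatives the difference in M-value ran from -0.63, with the proxies of coverage as covariates, to -0.22, without replicate 2, and the limma adjusted p from 0.0647 to 0.617. Over the 8 low clusters that were tested, no interval of the difference reached further than 1.28 percentage points from 0 on either side. For Tet1 cluster 2 the difference was -0.99 percentage points (95% interval -2.11 to 0.139), for Tet3 cluster 2 0.780 (-0.300 to 1.86), for Tet3 cluster 1 -1.34 (-2.996 to 0.316), and for Dnmt3a cluster 3 -0.334 (-0.893 to 0.225). The Tet2 cluster was the least precisely measured, with a difference of 4.94 percentage points and a 95% interval of -2.77 to 12.7 (adjusted p = 0.800 on M-values, limma). Within replicates 1, 2 and 3 it was -1.71, 1.85 and 14.7 percentage points, so the replicates differed in direction. M-values cannot show differences among levels that all lie under 1%, or all over 99%, since the authors limited levels to 1% and 99%. Between 65.0 and 96.7% of the values of Dnmt1, Uhrf1, Tdg, Tet3 cluster 3, Dnmt3a clusters 1 and 2 and Dnmt3b cluster 1 were at the lower limit. At the upper limit were 43.9% of the values of Tet3 cluster 2 and 18.7% of those of Tet3 cluster 1.

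**Figure D4:**
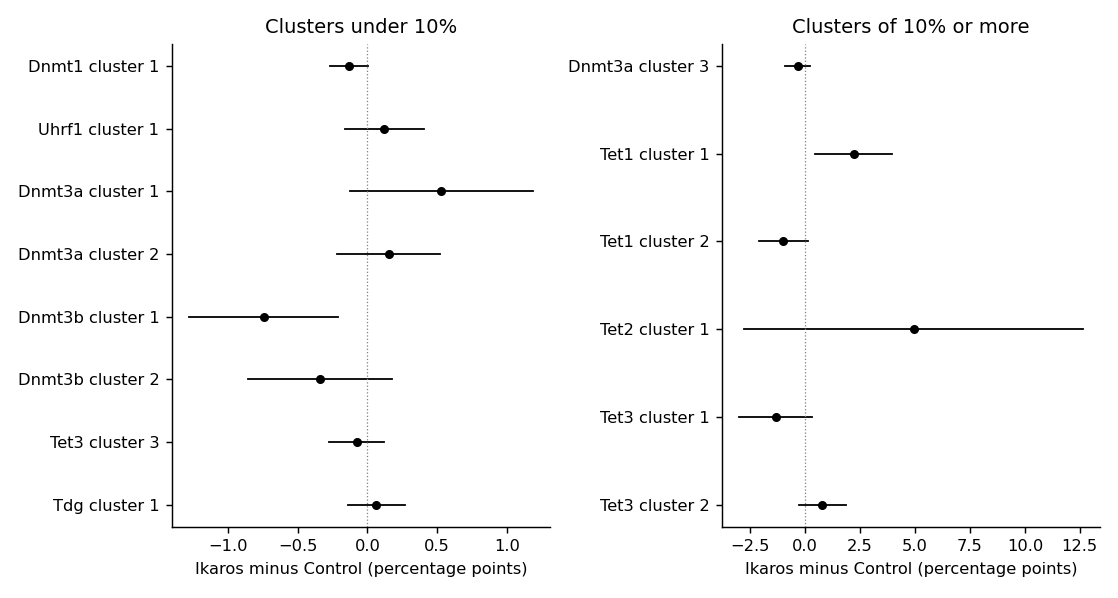
Difference between the series (Ikaros minus Control, percentage points, x axis) for the 14 tested clusters, as points with 95% intervals from the limma fit on levels, with clusters under 10% on the left and the others on the right on a wider scale. The intervals of Tet1 cluster 1 (0.435 to 3.98) and Dnmt3b cluster 1 (-1.28 to -0.211) leave out 0 before adjustment, and that of Tet2 is the widest.

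The time course asks whether methylation of these genes moves as Ikaros enters the nucleus. No cluster of the 14 was called in the Ikaros series by limma's moderated F test over the 6 times, at the adjusted or the unadjusted threshold, and the lowest unadjusted p was 0.161 (adjusted p = 0.969), at Tet2. Without Ikaros 24 h replicate 2, an alternative added after the data were seen, the limma values at Tet2 were 0.509 (adjusted p = 0.959), and again none of the 14 passed either threshold. Of all clusters tested, 0% passed the adjusted threshold and 5.22% the unadjusted one. In the Control series 0 of 14 passed the adjusted threshold, beside 0.012% of the table, and 2 of 14 the unadjusted one, beside 4.83%. Those were Tet3 cluster 3 and Dnmt3b cluster 2, which both had a limma adjusted p of 0.991. For a different course between the series, the limma interaction test called 0 of 14 and had none at an unadjusted p under 0.05, beside 0% and 5.12% of the table.

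Tet2, the cluster with the widest spread, was followed sample by sample. At 0 h the Ikaros samples were at 42.4, 61.8 and 56.5% and the Control samples at 47.8, 48.1 and 48.9%. At 2 h the Ikaros samples were at 50.05, 47.8 and 44.3% and the Control samples at 52.8, 34.2 and 56.5%. At 6 h they were at 56.1, 58.4 and 57.5% in Ikaros cells and 54.2, 54.4 and 36.8% in the Control series. The Ikaros mean minus the Control mean was 5.30 percentage points at 0 h, -0.463 at 2 h and 8.90 at 6 h. At 12 h the Ikaros samples were at 58.5, 42.5 and 86.8% and the Control samples at 45.4, 47.8 and 40.1%. At 18 h the Ikaros samples were at 60.5, 52.8 and 53.6% and the Control samples at 46.1, 49.1 and 46.2%. The series overlapped at 12 h but not at 18 h, when all Ikaros samples were the higher, as at 6 h. How many clusters of the whole table separate in this way at a given time was not counted, so no conclusion is drawn from it. At 24 h the Ikaros samples were at 22.0, 14.6 and 59.4%, and the Control samples at 53.6, 33.3 and 41.5%, with overlap. The highest and the lowest sample of all thus came from the Ikaros series, at 12 h and 24 h (the latter being Ikaros 24 h replicate 2), while the replicates of the same condition reached down to 42.5% and up to 59.4%, respectively.

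Tet1 cluster 1 was at 90.8, 88.3 and 90.5% in the Ikaros series at 0 h and at 85.8, 82.7 and 85.7% in the Control series, so the groups did not overlap before Ikaros was induced. They did not overlap at 12 h (Ikaros 88.4 to 91.1%, Control 85.99 to 87.8%) or at 18 h (Ikaros 86.9 to 87.1%, Control 82.9 to 86.4%) either, with Ikaros higher each time, and overlapped at 2 h and 6 h. At 24 h the Ikaros samples were at 91.2, 78.4 and 86.2% and the Control samples at 88.6, 88.5 and 87.1%, and the groups overlapped. Tet1 cluster 1 is followed because its series difference had the lowest adjusted p. How many clusters of the whole table separate at a given time was not counted. The separations at single times are thus a description, and no conclusion is drawn from them. The interaction test for Tet1 cluster 1 gave an adjusted p of 0.973 (limma). Dnmt3b cluster 2 in the Control series was at 0.607, 2.05 and 2.01% at 0 h, at 3.79, 3.97 and 3.78% at 2 h, and at 2.08, 1.83 and 2.97% at 12 h. At 24 h it was at 4.12, 2.10 and 4.93%. The 2 h samples thus lay above those of 0 h and 12 h, and 2 of the 24 h samples lay higher still. How many other clusters have times that separate like this was not counted either.

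**Figure D5:**
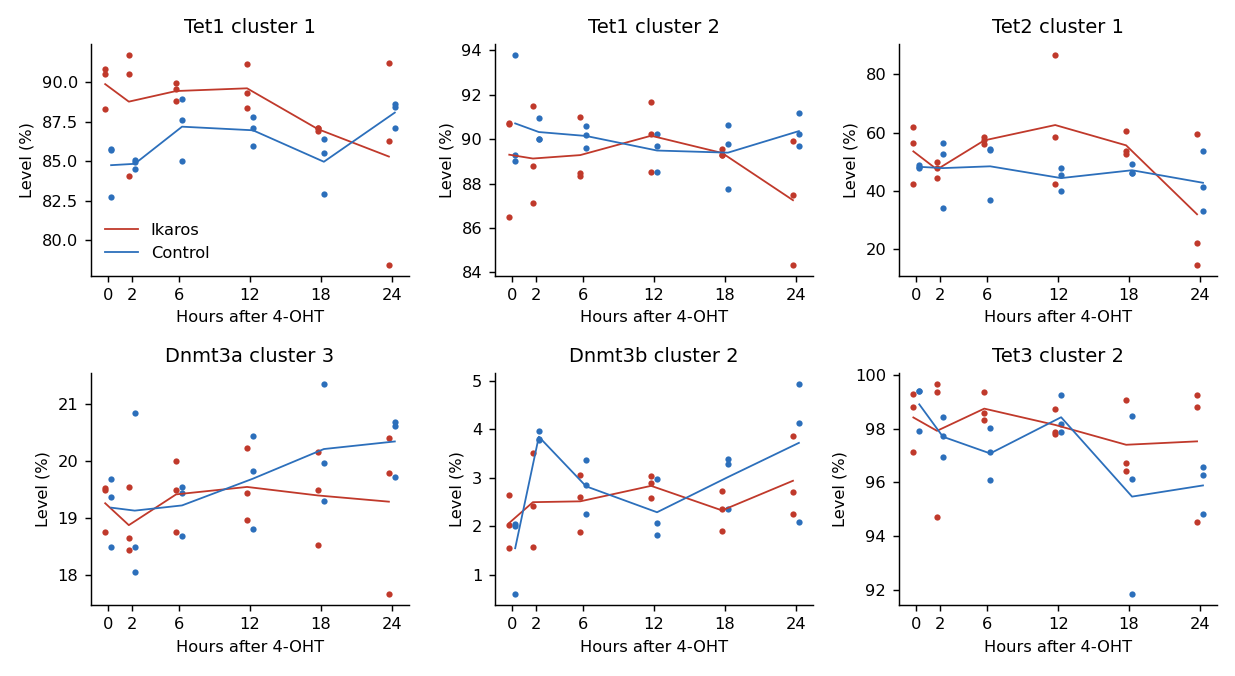
Level (%, y axis, a different range in each panel, none starting at 0) against hours after 4-OHT (x axis) for 6 clusters, with 1 point per sample and a line through the mean of the 3 replicates, red for the Ikaros series and blue for the Control series. The Tet2 samples at 12 h and 24 h spread furthest, from 14.6 to 86.8%, and no cluster passed the threshold in either series.

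Other genes of the same pathways were mostly unmethylated at their promoters as well. Of the 13 promoter clusters of genes that read methylated DNA (such as Mbd5 and Zbtb33), 11 were under 10% and 2 over 90%. Of 10 for partners of the writers, 8 were under 10%, and both others, 1 of them over 90%, were at Nsd1, which makes the H3K36 methylation that de novo enzymes bind. Of 9 for base excision repair, 8 were under 10% and the promoter cluster of Neil2 was over 90%. All 6 for substrate supply and Tet cofactors (such as Mat2a, which makes S-adenosylmethionine) were under 10%, as were 5 of 6 for deamination and Gadd45 genes.

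These lists had a cluster at 10 of 10, 7 of 9, 8 of 9, 7 of 7 and 3 of 5 genes. In the series difference they had 15, 11, 10, 6 and 8 tested clusters, and only 1, in the last list, was called, beside the 4.84% of the table. It was a promoter cluster of Gadd45b, a stress-induced gene linked to demethylation (chr10:80929134-80929285), at 0.558% ± 0.706 (SD, n = 18) in Ikaros cells and 1.65% ± 0.930 (SD, n = 18) in Control cells (difference in M-value -0.54, SE 0.14, adjusted p = 0.0186, limma). Both levels are under 2%. With the share of levels at exactly 0 or 100% and the share of positions without a value as covariates, its difference in M-value was -0.22 and its limma adjusted p 0.733, so the call was lost. It passed in 43 of 48 alternatives, and was also lost with the median over positions (adjusted p = 0.0969, limma), without replicate 1 (0.428), without replicate 3 (0.173) and with the samples of 2 h to 24 h only (0.137). The other 3 Gadd45b clusters had adjusted p from 0.555 to 0.948 in the same fit. No cluster of these lists was called in the time tests.

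By the rule set for likeness, the 3 clusters of these genes with the largest SD over the samples were compared with all 16733 others across the 36 samples, as a description. The Tet2 cluster was most like clusters near Nacc2 (Pearson r = 0.677, mean level 54.2%), Gm3558 (r = 0.674, 96.6%) and Arfgap2 (r = 0.642, 0.384%). Tet1 cluster 1 was most like a cluster 418338 bp from the start of Nmur2, its nearest protein-coding gene (r = 0.728), and clusters over starts of Nptx1 (r = 0.709) and Llgl2 (r = 0.672), and Tet3 cluster 1 was most like clusters near Fst (r = 0.758), Ppfia3 (r = 0.715) and Kif26a (r = 0.689). These are the highest of 16733 correlations each, over samples that share libraries and the number of reads behind them, and values of this size are read as no more than a ranking.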

How the data were processed

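RRBS was measured in 36 B3 samples, 18 per series. The authors trimmed reads with Trim-Galore, mapped them with Bismark 0.10.1 to GRCm38 (mm10), defined CpG clusters of a minimum size from sites covered in most samples, and smoothed the levels of all sites inside these clusters with BiSeq. Sites outside them are not in the table. The authors deposited smoothed levels as a fraction from 0 to 1 and, on a log2 scale, M-values of levels limited to 0.01 to 0.99. Neither table gives coverage, so no coverage minimum or counting error applies. The genes and lists were chosen with earlier results of these data known.

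A cluster was a run of listed positions at most 100 bp apart, valued as the mean over positions with a value in all 36 samples (complete in 16734 of 18009 clusters). Promoter clusters lay within 1000 bp of a GENCODE M21 start. Groups came from the labels, and replicates are separate experimental batches, with replicate 2 from a different batch at 0 h than at later times. limma 3.58.1 in R 4.3.3 was fitted over all clusters with Benjamini-Hochberg adjustment at 0.05, and tested on simulated data, without a replicate block. The 95% intervals come from the same fit on levels and are not adjusted. The rule described in full all promoter clusters, those from 10 to 90% and those past the threshold in any test, and counted every other cluster. Tet3 cluster 1, in the gene body, is named outside it, after its values were seen. Other tables used Python 3.11.15, numpy 2.4.6 and pandas 2.3.3. Alternatives included levels, medians, all positions, batch, coverage measures and samples left out.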

Additional observations from a re-analysis of the deposited data

How the results depend on the processing

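Across 48 alternatives, the series difference called 0 or 1 of the 14 clusters, and the 1 was Tet1 cluster 1 each time. It was called with the median over positions (difference in M-value 0.57, adjusted p = 0.0232), without Control 24 h replicate 2 (0.45, 0.0491), without replicate 2 (0.58, 0.0139), without Ikaros 2 h replicate 3 (0.46, 0.0328) and without Ikaros 24 h replicate 2 (0.48, 0.00979). Over all alternatives its difference ran from 0.29 to 0.58 and its adjusted p from 0.00979 to 0.609. The time tests called 0 of 14 in each of their 14 or 15 alternatives.

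Of 672 differences of single clusters under an alternative, 13 changed sign, all uncalled, and the cause was not tested. In M-value these were Tet1 cluster 2 (0.060) and Dnmt3a cluster 1 (-0.085) with the median, and Tdg (-0.030), Dnmt3a cluster 1 (-0.035), Dnmt3a cluster 3 (0.085) and Tet3 cluster 1 (0.067) with coverage measures as covariates. Tet3 cluster 3 changed with all positions (-0.0079) and on levels (-0.079 percentage points). With samples left out, differences ran from -0.026 to 0.054 for Tdg (lower without replicate 2 and, at -0.0085, without Ikaros 24 h replicate 2), -0.13 to 0.030 for Dnmt3a cluster 3 (higher without replicate 2), -0.18 to 0.43 for Tet2 (lower without replicate 3) and -0.011 to 0.056 for Tet3 cluster 3 (lower without replicate 1).

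In the whole table the series difference called 810 clusters, and 335 to 906 under alternatives (335 with coverage covariates, 399, 543 and 368 without replicates 1, 2 and 3, and 543 with the median). The time tests called 0 to 7 in the whole table. With a promoter window of 500 bp, Tet1 cluster 1 became a gene-body cluster, making 2. The replicate block moved the 810 to 820 and changed no call among the 14; samples of the same replicate number did not deviate together (mean r -0.0003 over 198 pairs, 0 over 0.1). Coverage per site is unknown and limits all values, and differences among levels under 1% or over 99% are hidden by the limit on M-values.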
